A study of Rattus norvegicus with 8 samples.

Results

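The genes described are the ligands, receptors and processing enzyme of the interleukin-1 (IL-1) family in rat colon: Il1a, Il1b, Il1rn, Il18 and Il33 (ligands), Il1r1, Il1r2, Il1rap and Il1rl1 (receptors) and Casp1 (the processing protease). Members were all probes whose gene name in the scanner files equals one of these symbols. This gave 13 probes for 10 genes, out of 26205 gene names on the array. Of the 13 probes, 11 passed the filter on dim signal described with the first results, and each of the 10 genes kept at least 1 probe.

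RNA came from colon of female Wistar rats aged 14 weeks, hybridised to 1-colour Agilent arrays, with 2 arrays in each of 4 groups (n = 2 throughout). Healthy rats (6 animals) ate a diet with sunflower oil and were not given dextran sulfate sodium (DSS), a chemical used to damage the gut epithelium of rodents. The other 3 groups (10 animals each) received 5% DSS for 7 days to induce colitis and ate diets enriched with sunflower oil (the n-6 group), with α-linolenic acid (the ALA group, a plant n-3 fatty acid) or with fish oil, rich in long-chain n-3 fatty acids. All 4 diets lasted 8 weeks, so the n-6 and healthy groups share the oil and differ in DSS. RNA of 6 rats was pooled for the arrays. Nothing in the labels says that the arrays of a group hold different animals, so p-values reflect array-to-array spread alone, which may be technical. If each array carries a pool of 6 rats, the 2 healthy arrays hold the same 6 animals. The study compared each n-3 diet with the n-6 group.

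IL-1α and IL-1β both bind the receptor IL-1R1, which needs the accessory chain IL-1RAP to signal through MyD88 and IRAK kinases to NF-kB. The antagonist IL-1RN occupies the same receptor without signalling, and IL-1R2 is a decoy that binds ligand but lacks a signalling domain. IL-33 is an alarmin of epithelial and stromal nuclei whose receptor is encoded by Il1rl1 (also called ST2), and caspase-1 cleaves the precursors of IL-1β and IL-18. In the gut, IL-1β is largely made by myeloid cells, and IL-18 by epithelial cells.

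All levels below are log2 processed signals minus the 75th percentile of their array, and a difference is between means of such levels, so 1 unit is a doubling. The percentile itself was 6.85 on fish oil replicate 1 and lay between 7.90 and 8.78 on the other 7 arrays, and 54.0% of probes were well above background on that array against 59.8% to 70.1% on the others. Dim probes were therefore least well measured on that array. All 8 markers of absorptive colonocytes passed the filter, and so did all 8 markers of macrophages. The summed level of the colonocyte markers was 243 on n-6 replicate 1 and ran from 471 to 984 on the other 7 arrays, so n-6 replicate 1 stood apart. Where leaving it out moved a difference from the n-6 group by over 1.5 times or turned its sign, the value without it is given. All arrays lay on 1 slide, with ALA and healthy in row 1 and fish oil and n-6 in row 2, so that slide row and group cannot be told apart in n-6 against healthy, ALA against n-6, ALA against fish oil and fish oil against healthy. ALA and fish oil lay in columns 1 and 2, and healthy and n-6 in columns 3 and 4. The same therefore holds for slide column in fish oil against n-6 and ALA against healthy. In ALA against n-6 and fish oil against healthy it holds for column as well as row.

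In n-6 colitis, the agonists Il1a and Il1b, the antagonist Il1rn and the decoy receptor Il1r2 were all higher than in healthy colon on both arrays, and Casp1 was lower. No member passed over all genes. Probes were tested if at least 1 group had them well above background on both of its arrays. Each gene was represented by its brightest probe, and limma was fitted to all 8 arrays with Benjamini-Hochberg adjustment over 18175 genes at 0.05. Of the 10 members, 0 passed in n-6 against healthy, where 0.0385% of all genes did, and 2 had an unadjusted p under 0.05, against 14.3% of all genes. Healthy and n-6 arrays were fully separated for 5 members, 4 higher and 1 lower, against 45.5% of all genes (23.7% higher and 21.7% lower). The median difference of the members was 1.003, and that of all genes 0.03. Without n-6 replicate 1 the members' median was 0.29. In whole tissue, fewer cells of a type and less RNA per cell cannot be told apart.

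Il1rn had the smallest p of the members in this comparison. Its level was 0.72 and 0.86 in healthy colon and 4.09 and 3.81 in n-6 colitis, so the n-6 arrays lay far above the healthy ones. The difference was 3.16 (SE 0.42), an 8.92-fold higher signal, with a limma adjusted p of 0.0937. Its direction was the same and its size ran from 3.01 to 3.30 over 19 alternatives. It passed with normexp background correction (adjusted p = 0.0118) and with an intensity trend and robust prior (adjusted p = 0.0336), and did not with the others, where the adjusted p ran up to 0.365. The arrays of both n-3 groups fell between healthy and n-6 colitis: ALA stood at 2.03 and 2.17, and fish oil at 2.66 and 1.48. Neither n-3 group overlapped with n-6 or with healthy colon for Il1rn. The difference from n-6 was -1.85 for ALA (SE 0.42, limma adjusted p = 0.839) and -1.88 for fish oil (SE 0.42, adjusted p = 0.41). Against healthy colon Il1rn was 2.48-fold higher in ALA colitis and 2.42-fold higher in fish oil colitis (limma adjusted p = 0.733 and 0.994). The fish oil difference of 1.28 was 0.69 without fish oil replicate 1 and 1.86 without fish oil replicate 2. Of the 10 members, Il1rn was the member whose arrays did not overlap between the 3 colitis groups together and healthy colon (difference 1.91, SE 0.34, limma adjusted p = 0.267), where 10.3% of all genes did not overlap. Its probe, chr3:2613130-2613189 on the plus strand of rn4, was spotted 2 times on each array.

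**Figure D1:**
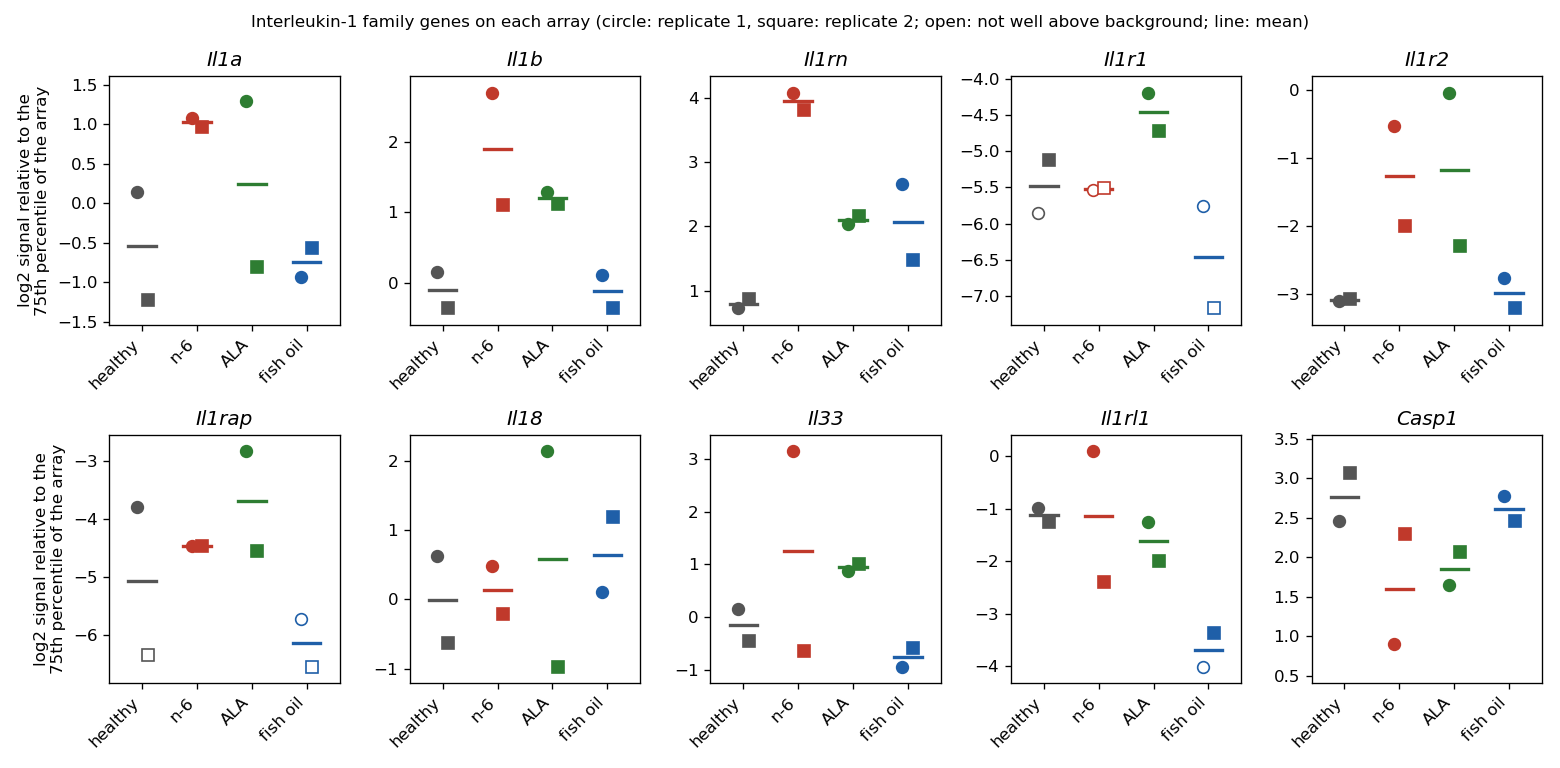
Level of each of the 10 genes on each of the 8 arrays, as log2 signal relative to the 75th percentile of the array (vertical axis, own range in each panel) by group (horizontal axis). Circles are replicate 1, squares replicate 2, open symbols are not well above background and lines are means. Il1rn does not overlap between groups except for ALA with fish oil, with healthy at 0.72 and 0.86 and n-6 at 4.09 and 3.81. Il18 overlaps throughout.

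Il1b, the secreted agonist, was near its healthy level in fish oil colitis and above it in the other colitis groups. Its level was 0.16 and -0.36 in healthy colon, 2.70 and 1.11 in n-6 colitis, 1.28 and 1.12 in ALA colitis and 0.11 and -0.35 in fish oil colitis. All 4 n-6 and ALA arrays thus lay above all 4 healthy and fish oil arrays. The difference was 2.01 between n-6 and healthy (SE 0.54, limma adjusted p = 0.202) and -2.03 between fish oil and n-6 (SE 0.54, adjusted p = 0.41), 2 comparisons that share the n-6 arrays. Without n-6 replicate 1 these were 1.21 and -1.24, and without n-6 replicate 2 they were 2.80 and -2.82. ALA was 2.47-fold above healthy colon and 2.51-fold above fish oil (limma adjusted p = 0.762 and 0.504). ALA and n-6 overlapped, because n-6 replicate 2 lay just below both ALA arrays. The probe for Il1b, chr3:116964465-116964524 on the minus strand of rn4, had 10 spots on each array.

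Il1a, the agonist that also acts from within or on the surface of cells, was measured with 2 probes 1018 bases apart. With the brighter probe, chr3:116913748-116913807, levels were 0.15 and -1.23 in healthy colon, 1.08 and 0.96 in n-6 colitis, 1.30 and -0.81 in ALA colitis and -0.93 and -0.56 in fish oil colitis. The n-6 arrays lay above all healthy and fish oil arrays, and the ALA arrays lay far apart, replicate 1 above both n-6 arrays and replicate 2 among the healthy and fish oil arrays. The difference was 1.56 between n-6 and healthy (SE 0.73, limma adjusted p = 0.394) and -1.77 between fish oil and n-6 (SE 0.73, adjusted p = 0.41). The first was 0.87 without healthy replicate 2 and 2.25 without healthy replicate 1. The dimmer probe, chr3:116914826-116914885, gave 1.77 for n-6 against healthy and -0.86 for fish oil against n-6. On fish oil against healthy the brighter gave -0.21 (SE 0.73) and the dimmer 0.91 (SE 0.62), so no direction is given there. The brighter probe had 10 spots on each array and the dimmer 1. The dimmer probe is shown because the fish oil values of Il1a turn on which of the probes is read.
Il1a dimmer probe: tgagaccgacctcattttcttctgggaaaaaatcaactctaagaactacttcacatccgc

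Il1a and Il1b neighbour each other on chromosome 3, their probes 50657 bases apart in rn4, while Il1rn lies elsewhere on that chromosome. Promoters of 9 of the 10 genes were found in the RefSeq table for GRCr8, Il1r2 being the exception, with 2 each for Il33 and Il1rap. The 250 bases before the annotated start are shown for Il1a, Il1b and Il1rn, the members beside Il1r2 that were higher in n-6 colitis than both in healthy colon and with fish oil on all arrays. Capitals mark matches on either strand to 1 of 4 elements. They are the AP-1 element, spelled TGANTCA with N for any base, the TATA box, spelled TATAAA, the CCAAT box, named for its letters, and the kappaB consensus. None of the marked matches overlap.
Il1a promoter, chr3:136990018-136990267, minus strand, GRCr8: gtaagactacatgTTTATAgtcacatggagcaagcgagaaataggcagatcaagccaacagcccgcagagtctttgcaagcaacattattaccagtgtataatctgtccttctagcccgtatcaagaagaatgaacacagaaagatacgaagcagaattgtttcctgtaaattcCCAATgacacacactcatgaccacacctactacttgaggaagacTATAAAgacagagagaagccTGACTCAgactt
Il1b promoter, chr3:137036582-137036831, minus strand, GRCr8: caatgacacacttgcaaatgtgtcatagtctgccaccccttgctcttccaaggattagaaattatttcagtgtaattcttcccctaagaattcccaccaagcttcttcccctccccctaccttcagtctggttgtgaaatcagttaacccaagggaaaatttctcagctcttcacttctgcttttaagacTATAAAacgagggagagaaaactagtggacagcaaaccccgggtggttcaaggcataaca
Il1rn promoter, chr3:27520072-27520321, plus strand, GRCr8: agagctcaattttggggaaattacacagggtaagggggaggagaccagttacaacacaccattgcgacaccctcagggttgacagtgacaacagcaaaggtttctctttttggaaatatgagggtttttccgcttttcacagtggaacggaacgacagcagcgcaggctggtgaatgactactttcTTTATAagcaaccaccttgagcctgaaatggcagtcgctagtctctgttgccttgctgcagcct
A TATAAA match stood in all 3, on the gene's own strand in Il1a, beginning at position -32 from the start, and in Il1b, at -60, and on the opposite strand in Il1rn, at -64. Il1a held another on the opposite strand at -237. Of 33469 promoters, 12.9% held such a match in the same 250 bases. The AP-1 letters were in Il1a, at -12, and in no other member promoter searched, against 6.34% of promoters. CCAAT was in Il1a, Il1r1, Il1rap and Il33, against 34.0% of promoters. The kappaB letters were in Il1r1 and Il1rap, against 3.54% of promoters. These are matches of letters and show no binding.

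Because Il1rn and Il1b are read on the same array, the difference between them does not depend on how arrays are scaled, and its change from group to group can be set side by side. Il1rn minus Il1b was 0.57 and 1.22 on the healthy arrays, 0.75 and 1.04 on the ALA arrays, 2.55 and 1.84 on the fish oil arrays and 1.39 and 2.70 on the n-6 arrays. The fish oil and n-6 arrays lay above all healthy and ALA arrays. This split is also that of the slide rows, so row and group cannot be told apart in it. Il1rn minus Il1a did not separate the groups this way, at 0.58 and 2.09 on the healthy arrays, 0.74 and 2.98 on the ALA arrays, 3.59 and 2.05 on the fish oil arrays and 3.003 and 2.85 on the n-6 arrays. For Il1rn minus Il1b, group means were 0.89 ± 0.46 (SD, n = 2) in healthy colon, 0.90 ± 0.21 with ALA, 2.19 ± 0.50 with fish oil and 2.04 ± 0.93 with n-6. In fish oil colitis the agonist's arrays overlapped with the healthy ones while the antagonist's lay above them, and in ALA colitis both were higher than in healthy colon by about the same amount. The pair was chosen with these values known, so no test is given.

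**Figure D2:**
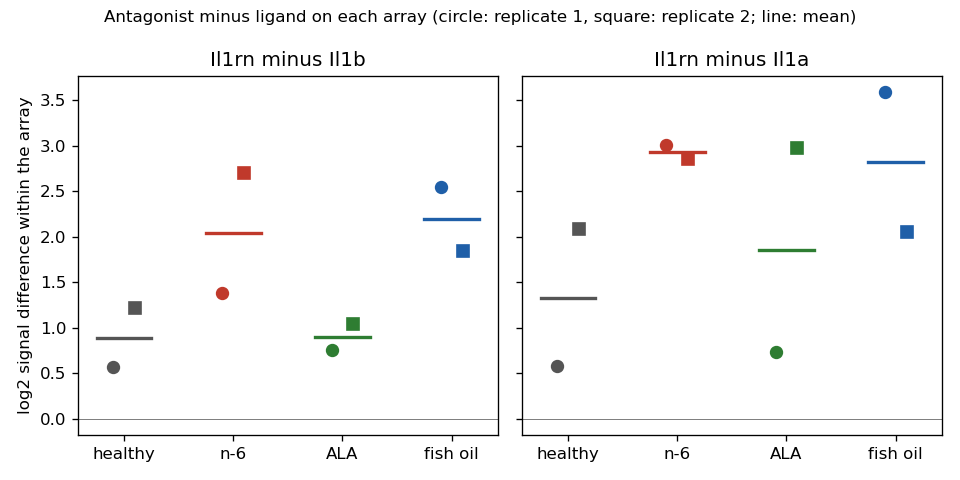
Log2 signal of Il1rn minus that of Il1b (left) and of Il1a (right) within each array (vertical axis), by group (horizontal axis), with circles for replicate 1, squares for replicate 2 and lines for means. For Il1b the healthy and ALA arrays lie between 0.57 and 1.22, and the n-6 and fish oil arrays between 1.39 and 2.70; for Il1a the groups overlap, with ALA at 0.74 and 2.98.

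Among the receptors of IL-1, the decoy Il1r2 was the best measured, with signal well over background on all 8 arrays. Its level was -3.10 and -3.07 in healthy colon, -0.53 and -1.995 in n-6 colitis, -0.04 and -2.30 in ALA colitis and -2.76 and -3.21 in fish oil colitis. Replicate 1 was high in both the n-6 and the ALA group, and the fish oil arrays lay close to the healthy ones. The difference from healthy colon was 1.82 for n-6 (SE 0.78, limma adjusted p = 0.352) and 1.92 for ALA (SE 0.78, adjusted p = 0.754). It was 1.09 for n-6 without n-6 replicate 1 and 0.79 for ALA without ALA replicate 1. Fish oil against n-6 gave -1.72 (SE 0.78, limma adjusted p = 0.425), and -0.99 without n-6 replicate 1. The probe covers 60 bases spread over 2841 bases of rn4, chr9:39316654-39319494, and so spans at least 1 intron.
Il1r2 probe: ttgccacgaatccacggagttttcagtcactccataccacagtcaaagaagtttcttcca

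The signalling chains Il1r1 and Il1rap were dim. Il1r1 was well above background on 3 of 8 arrays, at -4.19 and -4.72 in ALA colitis and -5.11 on 1 healthy array. It passed the filter through the ALA group alone, so its height there was a condition of being tested. No array of n-6 or fish oil colitis was well above background for it. Over n-6 colitis the measured difference of ALA was 2.09-fold (log2 1.06, SE 0.52, limma adjusted p = 0.885). The n-6 signals lay over the lowest signal that counts as well above background, so this is an estimate and no bound. Against that lowest signal, or the probe's own where higher, ALA was at least 1.85-fold over fish oil colitis (limma adjusted p = 0.476). That bound takes no account of the spread between arrays. Both values hold for this background correction only. With normexp the measured log2 differences of ALA were 0.17 from n-6 and -0.18 from fish oil. The accessory chain Il1rap, read by the brighter of its 2 probes, was at -3.79 and -6.35 in healthy colon, -4.46 on both arrays of n-6 colitis and -2.83 and -4.56 in ALA colitis. Neither fish oil array was well above background for it. The same kind of bound was at least 3.14-fold for ALA and at least 1.84-fold for n-6 over fish oil (limma adjusted p = 0.49 and 0.455). With normexp the measured log2 difference of ALA from fish oil was 0.02 and that of fish oil from n-6 was 0.21, against 2.45 and -1.68. Without ALA replicate 1 the first was 1.58. The differences of both genes from fish oil colitis thus depend on the background correction. The other Il1rap probe was well above background on 1 array.

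Il33, the alarmin, and Il1rl1, the gene of its receptor, differed most between the arrays of the n-6 group. Il33 was at 0.15 and -0.44 in healthy colon, 3.15 and -0.65 in n-6 colitis, 0.87 and 1.02 in ALA colitis and -0.94 and -0.58 in fish oil colitis. Its n-6 arrays lay 3.79 apart, the largest gap between arrays of a group for any member, so that the n-6 mean of 1.25 describes neither array. Both ALA arrays were above all healthy and fish oil arrays. ALA was 2.13-fold above healthy colon and 3.25-fold above fish oil (SE 1.06 on the log2 scale for both, limma adjusted p = 0.857 and 0.589). n-6 replicate 1 also carried the lowest colonocyte marker sum and the highest fibroblast marker sum (182, against 47.6 to 114 on the other arrays), and the part of these cell types in the Il33 value was not tested.

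Il1rl1 was lowest in fish oil colitis. Its brighter probe, chr9:39617225-39617284, gave -0.99 and -1.25 in healthy colon, 0.10 and -2.38 in n-6 colitis, -1.25 and -1.99 in ALA colitis and -4.01 and -3.37 in fish oil colitis. Both fish oil arrays lay below the 6 others, and fish oil replicate 1 was not well above background. The difference of fish oil was -2.57 from healthy colon, -2.54 from n-6 and, seen from ALA, 2.07 (SE 0.76 for each, limma adjusted p = 0.994, 0.41 and 0.491). It was -1.30 from n-6 without n-6 replicate 1. With normexp the values were -0.88 from healthy, -1.04 from n-6 and, seen from ALA, 0.58. The gene gives rise to a membrane receptor and a soluble form, and the array carries probes designed on different transcripts, NM_013037 for the brighter and NM_001127689 for the dimmer. The dimmer probe spans an intron (60 bases over 1468 of rn4, chr9:39619275-39620742) and was well above background on n-6 replicate 1 alone, so the levels above are those of the first probe only. Which form each probe reads was not determined, so the levels above are not taken as those of the membrane receptor. The sequence of the dimmer probe is given so that the transcript it reads can be identified.
Il1rl1 dimmer probe: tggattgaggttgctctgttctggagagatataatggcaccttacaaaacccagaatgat

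Il1r2, Il1r1 and Il1rl1 lie in a row on chromosome 9, with 297.7 kb between the Il1r2 probe and the brighter Il1rl1 probe in rn4. They did not share a pattern over the groups: Il1r2 was higher in n-6 and ALA colitis than in healthy colon, Il1r1 was seen on both arrays in ALA colitis only, and Il1rl1 was not above healthy colon in any colitis group mean.

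Il18, the epithelial cytokine matured by caspase-1, showed no separation of groups. Its level was 0.62 and -0.63 in healthy colon, 0.49 and -0.21 in n-6 colitis, 2.15 and -0.97 in ALA colitis and 0.11 and 1.19 in fish oil colitis. The arrays overlapped in all 6 comparisons between groups, and the ALA arrays alone spanned 3.12. Its probe was chr8:53943005-53943064. Casp1, the protease, went the other way from the IL-1 agonists. It was at 2.46 and 3.06 in healthy colon, 0.90 and 2.30 in n-6 colitis, 1.65 and 2.07 in ALA colitis and 2.77 and 2.46 in fish oil colitis, with the n-6 and ALA arrays below all others. The difference from healthy colon was -1.16 for n-6 and -0.90 for ALA (SE 0.51, limma adjusted p = 0.363 and 0.794), and fish oil was 2.03-fold above n-6 (adjusted p = 0.444). The values were -0.46 for n-6 against healthy and 0.32 for fish oil against n-6 without n-6 replicate 1, the array with the lowest colonocyte marker sum, whose part in the Casp1 value was not tested.

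Fish oil set against n-6 separated most members, and ALA set against n-6 few. With fish oil 0 of 10 members passed (0.0385% of all genes did) and 4 had an unadjusted p under 0.05 (12% of all genes): Il1a, Il1b, Il1rn and Il1rl1, all lower (5.97% of all genes). The arrays did not overlap for 8 members (46.7% of all genes), 7 lower and 1 higher, against 23.6% and 23.1% of all genes. Il1r1 is among the 7 but was not well above background in either group. Il1rap is also among them but was not well above background with fish oil, and its difference of -1.68 was 0.21 with normexp. That of Il1rl1, another of the 7, was -2.54, and -1.04 with normexp. The median difference of the members was -1.75, beside 0.01 for all genes, and -1.11 without n-6 replicate 1. With ALA 0 of 10 passed (0.0275% of all genes), 1 had an unadjusted p under 0.05 (5.79% of all genes), and the arrays did not overlap for Il1rn and Il1r1 (30% of all genes). The height of Il1r1 with ALA was a condition of its being tested. The median of the members was -0.11, beside 0.07, and 0.77 without n-6 replicate 1. Tested directly, ALA against fish oil had 0 of 10 past the threshold (0% of all genes), 4 with an unadjusted p under 0.05, all higher with ALA (6.61% of all genes, and 9.61% in either direction), and 7 whose arrays did not overlap (45.7%). Of the 7, 6 were higher with ALA (25.3% of all genes) and 1 lower (20.4%). The 4 were Il1b, Il1r1, Il1rap and Il1rl1. Of these, Il1r1 passed the filter only through the ALA group, and the values of Il1r1 and Il1rap with normexp were -0.18 and 0.02, so these 2 add no support to a direction. That of Il1rl1 was 0.58 with normexp, against 2.07.

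**Figure D3:**
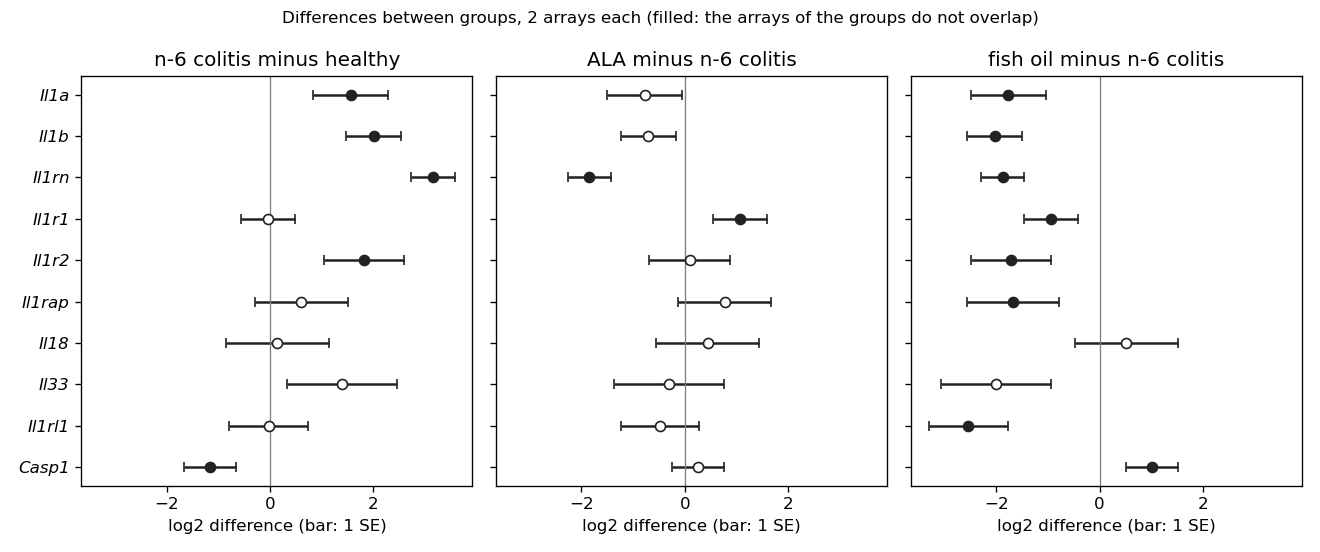
Log2 difference of each gene (horizontal axis, bars 1 SE) in n-6 colitis against healthy colon, ALA against n-6 and fish oil against n-6, with 2 arrays a group. Filled points mark genes whose arrays did not overlap: 5 in n-6 against healthy, 2 in ALA against n-6 and 8 in fish oil against n-6.

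Against healthy colon, the arrays of 7 members did not overlap with ALA and those of 3 did not with fish oil, a contrast not itself tested. Such separation was common, at 40.5% and 38.7% of all genes, so the counts are a description only. With ALA 0 of 10 members passed (0% of all genes), 3 had an unadjusted p under 0.05 (6.54%), namely Il1b, Il1rn and Il1r2, and 7 did not overlap with healthy colon (40.5%), 5 above it (22.4%) and 2 below (18.1%). Il1r1 is among the 5 but passed the filter through the ALA group alone, so it adds no support. Its difference of 1.03 was 0.30 with normexp. Il33, Il1rl1 and Casp1 are also among the 7, with unadjusted limma p of 0.341, 0.532 and 0.118. With fish oil 0 passed (0% of all genes), 2 had an unadjusted p under 0.05 (3.9%), Il1rn above and Il1rl1 below, and 3 did not overlap (38.7%). These comparisons share the healthy arrays. For the 3 colitis groups together against healthy, 0 passed (0% of all genes) and 2 had an unadjusted p under 0.05 (8.02%), Il1rn and Il1b. For both n-3 groups together against n-6, 0 passed (0.033%), and the same 2 members had an unadjusted p under 0.05 (8.25%), with Il1rn at -1.86 (SE 0.36, limma adjusted p = 0.469) and the single member without overlap (15.4%).

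Markers of several cell types differed between the groups along with the family. The summed level of the macrophage markers (8 of 8 passed the filter) was 23.4 and 27.6 in healthy colon, 52.2 and 52.6 in n-6 colitis, 50.9 and 52.8 in ALA colitis and 49.8 and 36.4 in fish oil colitis. That of the neutrophil markers (4 of 8 passed, and Cxcr2 was not well above background on any array) was 0.38 and 0.18, 2.32 and 0.83, 1.501 and 0.58, and 0.94 and 0.59 in the same order. Both sums were higher on all 6 colitis arrays than on the healthy arrays. Lyz2, the brightest macrophage marker on every array, weighed most in the macrophage sum. The mean log2 level of the macrophage markers, in which each weighs the same, was -1.395 and -0.85 in healthy colon. It was 0.31 and 0.19 in n-6, -0.28 and -0.40 in ALA and 0.13 and -0.37 in fish oil colitis. This mean was lower with ALA than with n-6 although the sums were alike. B cell markers (5 of 5 passed) summed to 14.4 and 0.73 in n-6 and 3.20 and 17.8 in ALA colitis, and to between 0.10 and 0.59 on the healthy and fish oil arrays, which is the split seen for Il1b. Fibroblast markers (6 of 7 passed) were highest in n-6 colitis, at 182 and 114, like Il1rn. Red cell markers (5 of 5 passed) summed to 267 and 177 in n-6 colitis and to between 6.97 and 14.7 on the other 6 arrays, and 4 of the 5 passed the adjusted threshold in n-6 against healthy. The part of these cells in the values of Il1b, Il1rn and the other members was not tested.

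Of the other genes of the pathway, none passed the threshold over all genes in any comparison. The lists were filtered for dim signal like the members. The family list holds the other ligands and receptors, and of its 12 genes 4 passed the filter. Its median difference was 0.45 in n-6 against healthy, -0.31 in ALA against n-6 and -0.04 in fish oil against n-6, with 1, 0 and 0 genes higher and 0, 0 and 1 lower at an unadjusted p under 0.05 (14.3%, 5.79% and 12% of all genes did in either direction). Without n-6 replicate 1 the last median was -0.30. In it Il18bp, which binds and neutralises IL-18, was at -2.55 and -1.51 in healthy colon and -0.94 and -0.95 in n-6 colitis (difference 1.09, SE 0.46, limma adjusted p = 0.349). Sigirr, an inhibitory receptor, had a difference of -0.73 that turned to 0.08 without n-6 replicate 1, and Il18r1, the IL-18 receptor, had -0.20, and -0.006 without that array. Il1rl2 was not well above background on both arrays of any group.

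The signalling list, with 17 of 19 genes past the filter, had medians of 0.18 in n-6 against healthy, -0.004 in ALA against n-6 and -0.11 in fish oil against n-6, with 2, 1 and 2 genes higher and 3, 0 and 2 lower at an unadjusted p under 0.05 (14.3%, 5.79% and 12% of all genes did in either direction). Without n-6 replicate 1 the second median was 0.13. Myd88, the adaptor of the receptors, had a difference of 0.15 in n-6 against healthy. Irak3, a kinase-family member that restrains this signalling, was at -0.25 and -0.06 in healthy colon, 2.41 and 0.90 in n-6 colitis, 1.25 and 1.67 in ALA colitis and 0.01 and 0.23 in fish oil colitis. All n-6 and ALA arrays lay above all fish oil and healthy arrays, the same split as for Il1b. The difference was 1.81 for n-6 against healthy and -1.54 for fish oil against n-6 (SE 0.50, limma adjusted p = 0.211 and 0.41), and 1.06 and -0.78 without n-6 replicate 1.

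In the list of inflammasome and processing genes 14 of 20 passed the filter, and the medians were -0.33, 0.04 and 0.33 in the 3 comparisons in the same order, with 2, 0 and 0 genes higher and 0, 0 and 2 lower at an unadjusted p under 0.05 (14.3%, 5.79% and 12% of all genes did in either direction). Without n-6 replicate 1 the medians turned to 0.18, -0.26 and -0.06. Pycard, the adaptor that links sensors to caspase-1, had differences of -0.66, 0.27 and 0.72, and Casp4, a related inflammatory caspase, of 0.55, -0.28 and -0.42. Without n-6 replicate 1 the second of these was 0.10 for Pycard and -0.14 for Casp4. Nlrp3, the sensor, did not pass the filter. The list of genes that IL-1 is known to induce had 16 of 20 past the filter and medians of 1.93, -0.48 and -1.92, which were 0.69, 0.34 and -0.66 without n-6 replicate 1. At an unadjusted p under 0.05, 7, 0 and 0 of these were higher and 0, 1 and 7 lower (14.3%, 5.79% and 12% of all genes did in either direction). The neutrophil attractant Cxcl1 was at -4.70 and -4.54 in healthy colon, 2.58 and -1.29 in n-6 colitis, 1.19 and -2.01 in ALA colitis and -2.70 and -3.96 in fish oil colitis, with differences of 5.27 for n-6 against healthy and -3.98 for fish oil against n-6 (SE 1.41, limma adjusted p = 0.202 and 0.41), and 3.33 and -2.04 without n-6 replicate 1. Nfkbia, the NF-kB inhibitor, had differences of 0.67, -0.14 and -0.36, and Lcn2 of -0.15, 1.18 and -0.26, which were -0.92, 1.95 and 0.51 without n-6 replicate 1. Il6 and Ptgs2 did not pass the filter.

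The 5 named genes whose levels over the 8 arrays were most like those of Il1b, among 13095, were Src, Itga2b, Lsm3, Il23a and Nop2 (Pearson r from 0.977 to 0.979). For Il1rn they were Igf1, Efemp2, Timp1, Pcolce and Rbpjl (r from 0.980 to 0.985). For Il18 they were C5h1orf216, Pdzk1ip1, Ndrg2, Olfml3 and Ginm1 (r from 0.950 to 0.983). The points share arrays and their scaling, and with 8 arrays many genes reach such values, so this is a description only.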

How the data were processed

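Colon RNA was measured on 8 single-colour Agilent arrays. Per the file headers, Agilent Feature Extraction 11.5.1.1 made the spot intensity used here, subtracting background and removing spatial trends, with probes placed on rn4. The authors' own deposited table has 1 log2 value a gene symbol; their way of joining probes is not given here. Its differences served as an alternative.

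Control and outlier spots were left out, and log2 signals of the spots of a probe averaged. A probe was well above background where at least 50% of its spots were marked so. Of 30354 probes, 20793 passed the filter, leaving 18175 genes, named through RefSeq (GRCr8, for names only) or by the file's symbol. limma 3.58.1 in R 4.3.3 fitted 4 groups with 1 shared spread (4 residual and 3.02 prior degrees of freedom), tested on simulated data. Members and lists were chosen with earlier results of these data known. All members are described by array. Most differences given for them are from comparisons where arrays of the groups did not overlap, and not every such difference is printed. Il18r1, Il18bp, Sigirr, Il1rl2, Myd88, Irak3, Nlrp3, Pycard, Casp4, Il6, Ptgs2, Cxcl1, Nfkbia and Lcn2 were named from the lists by a set choice, beside any list gene past the threshold (there was none), and for Il1b, Il1rn and Il18 the 5 named genes of highest Pearson r. The level compared between arrays was relative to the 75th percentile of log2 signal. The number of arrays limits the precision.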

Additional observations from a re-analysis of the deposited data

Results flagged for a closer look

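Il33 was flagged because the arrays of the n-3 groups lay on opposite sides of healthy colon. Both ALA arrays were above both healthy arrays (difference 1.09) and both fish oil arrays below them (difference -0.61, and -0.31 without healthy replicate 1). The SE was 1.06 for each, with limma adjusted p = 0.857 and 0.996. Of all genes, 40.5% and 38.7% did not overlap in these comparisons, and the share on opposite sides was not counted. The difference between ALA and fish oil, 1.70 (SE 1.06), did not pass (limma adjusted p = 0.589), and both comparisons use the same healthy arrays.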

How the results depend on the processing

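Of 33 differences of single members, 31 kept their direction in all of the 19 alternatives that could be run for them. The exceptions were Il1rap in fish oil against n-6 (0.21) and Il1r1 in ALA against fish oil (-0.18), both with normexp, and both genes are dim. The 33 were picked because arrays of the groups did not overlap. Leaving out 1 array, as 8 of the alternatives did, could therefore not turn their sign. Alternatives that change only the estimate of the spread keep the measured difference too. The count of 31 was thus in large part fixed in advance. The number of members past the threshold in n-6 against healthy was 1 with normexp and 1 with an intensity trend and robust prior, Il1rn in each case, and 0 otherwise. In the other 7 comparisons it was 0 throughout. Over all genes the count past the threshold was 7 in n-6 against healthy (0 to 69 over the alternatives), 5 in ALA against n-6 (0 to 7), 7 in fish oil against n-6 (0 to 8) and 6 in both n-3 groups against n-6 (0 to 8). With each array left out in turn the number of members past the threshold was 0 in all 8 comparisons, and the Il1rn difference in n-6 against healthy ran from 3.02 to 3.29. The number of members with an unadjusted p under 0.05 ran from 2 to 6 in n-6 against healthy, 1 to 4 in ALA against n-6 and 3 to 7 in fish oil against n-6, over these alternatives. The groups share replicate numbers, but deviations of same-numbered arrays from their group means correlated between -0.168 and 0.47, and not every pair was over 0.1, so the numbers were not taken to pair arrays. With the replicate number as a block, 0 members passed in each comparison, and the adjusted p of Il1rn in n-6 against healthy was 0.0933. The fit with only the groups compared was not run for the 3 colitis groups against healthy, which uses all groups. With a filter that asked for signal well over background on each of 8 arrays, Il1r1, Il1rap and Il1rl1 gave no value. Signal near background limits Il1r1, Il1rap and the fish oil values of Il1rl1.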
